A study of Mus musculus with 16 samples.

Results

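Tibialis anterior muscle of mdx/miR-133b-/- mice was compared with that of Control mice. mdx mice carry a mutation in the dystrophin gene and are the standard mouse model of Duchenne muscular dystrophy, and miR-133b-/- mice lack the muscle microRNA miR-133b. The comparison uses 4 mdx/miR-133b-/- and 4 Control libraries, 8 of the 16 libraries in the series, each assigned by the code in its title, over all 831 genes that the deposited table lists. The Control mice are labelled wild type, every mouse was 30 days old, and total RNA came from whole muscle. The other 8 libraries, 4 labelled miR-133b-/- and 4 labelled mdx, enter the same fit and are used where a difference from them is tested. The sources used here do not give the strain background, the sex, the extent of the miR-133b deletion or the number of animals per library. The p-values therefore reflect variation among these libraries, some of which may be technical.

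Dystrophin ties the fibre's cytoskeleton to the surrounding matrix, and fibres without it tear, die and are rebuilt. Dystrophic muscle is known for newly formed fibres that use embryonic sarcomere proteins, for entry of macrophages, and for deposition of matrix. MicroRNAs of the miR-133 family are abundant in muscle and lower the output of messenger RNAs that pair with their seed, the stretch near the 5′ end that finds targets.

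The mature microRNA removed in this strain and 4 sites that its seed could pair with are shown here as possible links to the messenger RNAs measured. Whether miR-133b or any other microRNA acts on these sites was not tested. In the microRNA, capitals mark bases 2 to 8, the seed. In the sites, written as DNA, capitals mark GGACCAAA, the complement of the seed plus an A. The microRNA is from RefSeq (GRCm38.p6, chr1:20682834-20682855, plus strand), and the sites are in the longest annotated 3′ UTR of each gene (GENCODE M21, GRCm38).
miR-133b-3p: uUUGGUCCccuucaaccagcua
Col8a1, chr16:57624483-57624512, minus strand: ccaagtgaaatGGACCAAActggcattgtt
Tent5a, chr9:85323622-85323651, minus strand: aacatgctcaaGGACCAAAgatttaacaga
P2rx4, chr5:122729000-122729029, plus strand: gaaatgacctaGGACCAAAcattaaagaaa
Rasgrf2, chr13:91884244-91884273, minus strand: cccagctccatGGACCAAAgacagataccc

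The primary transcript over the deleted locus was listed. GENCODE calls it Gm28653 (chr1:20669882-20684298, plus strand, a long intergenic non-coding RNA). It begins at the same base as RefSeq's Lincmd1, the muscle RNA linc-md1, and annotated exons of it hold the whole miR-133b hairpin (chr1:20682769-20682887). Values throughout are scaled reads, whole read counts multiplied by 1 factor per library. Gm28653 measured 20.01, 72.7, 67.3 and 39.6 scaled reads in the 4 Control libraries and 501.6, 294.2, 438.9 and 541.2 in the 4 mdx/miR-133b-/- libraries. Every mdx/miR-133b-/- value lay above every Control value, a rise of 9.53-fold (log2 3.25, SE 0.47, limma adjusted p = 1.69e-05). In the mdx libraries the values were 289.8, 526.1, 484.5 and 240.8, and the difference between mdx/miR-133b-/- and mdx did not pass (log2 0.24, adjusted p = 0.766). In the miR-133b-/- libraries they were 43.0, 35.7, 6.62 and 18.5, overlapping Control (log2 -1.04, adjusted p = 0.432). Because the exons reach beyond the hairpin and the deleted stretch is not given, these reads do not check the genotype. Dmd, Mir133b and Mir206 themselves were not analysed here, so the genotype of each library rests on its label.

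The counts below carry a limit set by the table. Each listed gene differs between mdx/miR-133b-/- and miR-133b-/- by at least 1.72-fold, so the list is a selection made on a contrast that shares the mdx/miR-133b-/- libraries. A high share of genes that differ from Control is favoured by that selection and is not an estimate for the transcriptome. Total reads in listed genes ran from 3219038 to 4317386 in Control and from 2356990 to 3355306 in mdx/miR-133b-/- libraries, and the median SD between replicates was 0.27 and 0.38 on the log2 scale. On the first principal component (71.8% of variance) Control libraries lay between -20.0 and -14.0 and mdx/miR-133b-/- libraries between 13.9 and 29.4, with replicate 2 the closest to Control. The description field of 14 of the 16 samples names another sample's code. The title, source name and genotype fields match one another and were used. Grouping by the description field gave 0 genes at adjusted p under 0.05 and 0 at an unadjusted p under 0.05 with limma. Because the list was selected on a contrast of the titled groups, this outcome was favoured in advance and does not test the labels.

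Of the 831 genes, 758 (91.2%) passed at an adjusted p of 0.05 in limma. Higher genes numbered 451 (54.3%), with a median rise of 2.40-fold, and lower genes 307 (36.9%), with a median fall of 1.98-fold. More than 4-fold differences were almost all rises, 101 higher against 10 lower. The 4 values of one group all lay above the 4 of the other in 651 genes (78.3%). Over all 831 genes the median difference was 0.73 on the log2 scale. With relative log expression factors in place of the authors' factors that median fell to 0.33, and 655 genes passed, 323 higher and 332 lower, so that the share of higher genes among those that passed moved from 59.5% to 49.3%.

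**Figure D1:**
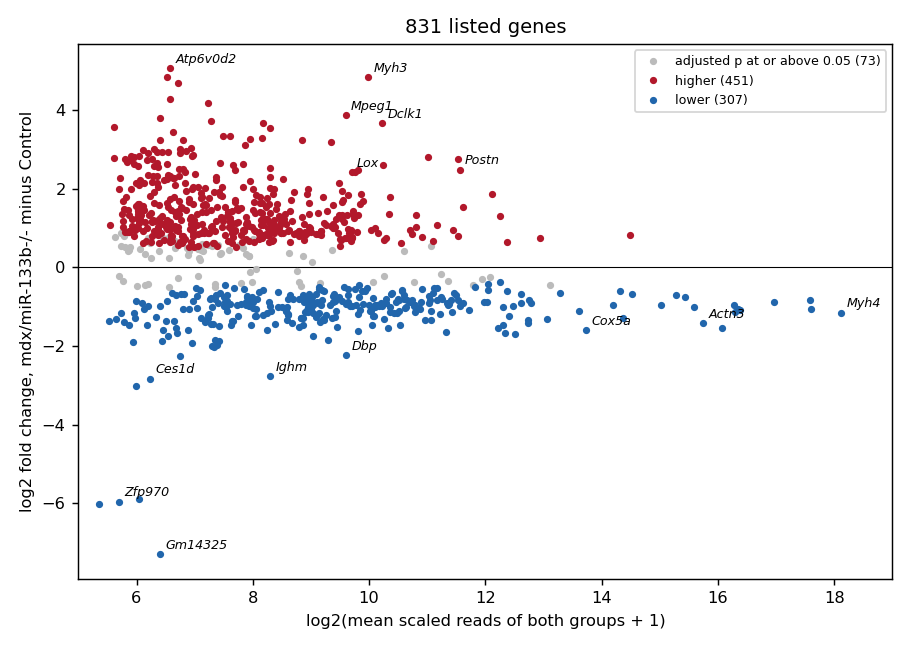
Each point is 1 of the 831 listed genes. The x axis is log2 of the mean scaled reads over the 8 libraries plus 1 and the y axis is the log2 fold change of mdx/miR-133b-/- over Control. Red points (451) were higher and blue points (307) lower at adjusted p under 0.05, and grey points (73) did not pass. The 4 lowest points are zinc finger genes of chromosome 2.

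The miR-133b seed could be looked for in 779 genes with an annotated 3′ UTR. GGACCAA, the complement of bases 2 to 8, was present in 67 of them. Of these 67 genes, 47 were higher (70.1%) and 12 lower (17.9%) than in Control, beside 54.1% higher and 37.4% lower among the 712 genes without it. Their median difference was log2 1.11 against 0.72. Genes with a match had longer 3′ UTRs, with a median of 2653 bases against 1141, and the part of length in these shares was not tested. The full GGACCAAA was present in 20 genes, of which 18 were higher and 1 lower. In mdx against Control, where miR-133b is intact by label, the same 67 genes had a median of 0.93 and the 712 others 0.45. In mdx/miR-133b-/- against mdx the medians were 0.10 and -0.07. In miR-133b-/- against Control they were -0.05 and -0.07.

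Of the genes whose sites are printed above, Col8a1, a short-chain collagen, measured 150, 118, 135 and 93.3 scaled reads in Control and 699, 352, 639 and 747 in mdx/miR-133b-/- libraries, a separation of all 8 values (4.76-fold, adjusted p = 4.22e-06). Tent5a, a poly(A) polymerase, measured 104, 143, 181 and 127 against 581, 395, 577 and 481 (3.67-fold, adjusted p = 5.89e-06). P2rx4, an ATP-gated ion channel, rose 2.56-fold (adjusted p = 3.41e-05). Rasgrf2, an exchange factor for Ras proteins, was the gene with the full site that fell, from 179.4, 124, 135 and 116 to 66.5, 104, 90.1 and 81.6 scaled reads (log2 -0.69, adjusted p = 0.00926). These 4 did not differ from mdx at the threshold (log2 0.16, 0.49, 0.18 and -0.02), and a p that misses it does not show that they were alike. Of all 20 genes with the full site, 5 were higher and 0 lower in mdx/miR-133b-/- than in mdx, with a median of log2 0.36, where 7.46% of all listed genes were higher. Those 20 had a median 3′ UTR of 3159 bases and a median GC content of 46.7%. The 712 genes without a seed match had 1141 bases and 49.9%. Over all listed genes, calls against mdx fell from 162 to 57 once the GC and length trends were removed. Whether the 20 genes still stood apart under that setting was not tested.

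Among 24 proposed miR-133 targets, 4 were listed. Runx2, the bone and cartilage transcription factor, measured 13.6, 26.5, 30.7 and 29.1 scaled reads in Control and 143, 159, 228 and 226 in mdx/miR-133b-/- muscle. The groups were far apart, with a rise of 7.48-fold (log2 2.90, SE 0.30, adjusted p = 6.13e-07), and mdx/miR-133b-/- also exceeded mdx (log2 0.98, adjusted p = 0.0303). Egfr, the epidermal growth factor receptor, rose by log2 1.13 (adjusted p = 0.000972) and Gli3, a Hedgehog pathway transcription factor, by 0.98 (adjusted p = 0.00271). Klf15, a regulator of muscle fuel use, measured 156, 173, 403 and 552 in Control and 142, 111, 185 and 149 in mdx/miR-133b-/- libraries, and fell by 0.95 on the log2 scale (adjusted p = 0.0262). Control replicates 3 and 4 were the highest, and the call was lost without Control replicate 3 (log2 -0.77, adjusted p = 0.085), Control replicate 4 (-0.62, 0.13) or mdx/miR-133b-/- replicate 2 (-0.82, 0.066). When each library's trend with transcript GC content and length was removed, Egfr (log2 0.32), Gli3 (0.48) and Klf15 (-0.56) no longer passed.

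Embryonic and regenerating fibre genes were higher. Of the 8 listed from a list of 17, 7 were higher and none lower, with a median of log2 2.34, beside 54.3% higher and a median of 0.73 over all listed genes. Myh3, the embryonic myosin heavy chain, measured 48.6, 61.9, 35.8 and 36.6 scaled reads in Control and 4896, 336, 1180 and 1492 in mdx/miR-133b-/- muscle (28.7-fold, log2 4.84, SE 0.62, adjusted p = 7.24e-06). Replicate 1 had more than any other library and replicate 2 the least of the 4, and even replicate 2 stood above every Control library. Myl4, the embryonic myosin light chain, rose 9.84-fold (adjusted p = 9.3e-06). Ncam1, an adhesion molecule of new and denervated fibres, rose 3.67-fold (adjusted p = 2.02e-05), and Tnnt2, the cardiac troponin T that embryonic fibres also use, 7.24-fold (adjusted p = 4.27e-05).

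Myog, the differentiation factor myogenin, did not pass. Its values of 206, 62.9, 118 and 92.8 scaled reads overlapped the Control values of 42.2, 60.6, 70.2 and 93.3 (log2 0.76, SE 0.48, adjusted p = 0.132). It passed with the GC and length trends removed (log2 1.36, adjusted p = 0.017). None of the 8 differed from mdx at the threshold, beside 19.5% of all listed genes. In mdx against Control their median was 2.35. The 2 sets of differences share the Control libraries.

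Slow fibre genes rose and fast fibre genes fell. All 4 listed slow genes, of a list of 11, were higher, beside 54.3% of all listed genes. Their median was log2 1.41, and in mdx against Control, where all 4 were also higher, it was 1.70. None of the 4 differed between mdx/miR-133b-/- and mdx at the threshold, beside 19.5% of all listed genes. Tnni1, slow troponin I, measured 2.86, 16.4, 16.8 and 18.7 scaled reads in Control and 335, 27.2, 119 and 84.9 in mdx/miR-133b-/- libraries (8.02-fold, adjusted p = 0.000325). Tnnt1, slow troponin T, rose 3.47-fold (adjusted p = 0.00215) and Casq2, the slow and cardiac calsequestrin, 2.04-fold (adjusted p = 0.00397). Atp2a2, the slow calcium pump SERCA2, measured 3055 in replicate 1 and between 1345 and 1500 in the other mdx/miR-133b-/- libraries, against 1025 to 1210 in Control. Its call (log2 0.61, adjusted p = 0.0181) was lost without replicate 1 (log2 0.33, adjusted p = 0.098) and with relative log expression factors (log2 0.21).

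The 4 listed fast fibre genes, of a list of 14, were lower, with a median of log2 -1.12, beside 36.9% lower among all listed genes. Actn3, the fast fibre actinin, measured 85145, 70760, 74522 and 89900 scaled reads in Control and 34324, 28518, 25765 and 30820 in mdx/miR-133b-/- muscle. The groups did not overlap and the fall was 2.68-fold (log2 -1.42, SE 0.23, adjusted p = 4.41e-05). Myh4, the myosin of the fastest fibres, fell 2.23-fold (adjusted p = 0.000532), Ckm, muscle creatine kinase, 2.12-fold (adjusted p = 7.68e-05) and Pvalb, the calcium buffer parvalbumin, 2.0-fold (adjusted p = 0.000554). In mdx/miR-133b-/- against mdx, Actn3 (log2 -0.90, adjusted p = 0.0155), Pvalb (-0.78, 0.024) and Ckm (-0.63, 0.027) were also lower, and Myh4 did not pass (-0.56, 0.138). Ryr1, the calcium release channel, fell 1.96-fold against Control (adjusted p = 0.000184). In bulk muscle, fewer fibres of a type and less RNA per fibre cannot be told apart.

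Of 7 synaptic and denervation genes listed from a list of 18, 5 were higher and none lower, with a median of log2 0.93, near the 0.73 of all listed genes, of which 54.3% were higher. Runx1, a transcription factor induced by denervation, measured 79.3, 72.0, 82.6 and 86.6 scaled reads in Control and 705, 478, 710 and 1448 in mdx/miR-133b-/- libraries (9.49-fold, adjusted p = 5.87e-07). Chrng, the embryonic subunit of the acetylcholine receptor, rose 6.97-fold (adjusted p = 0.000401) from 4.29 to 21.5 scaled reads in Control to 32.5 to 211. Chrna1, the alpha subunit, rose 1.90-fold (adjusted p = 0.00286), although its mdx/miR-133b-/- replicate 2 (427) was inside the Control range. It did not pass with the replicate block and the GC and length trends removed together (log2 0.60, adjusted p = 0.057). Chrnd, the delta subunit, did not pass (log2 0.79, adjusted p = 0.068), but passed without mdx/miR-133b-/- replicate 2 (log2 0.97) or replicate 4 (1.10) and with the trends removed (1.09). Musk, the receptor kinase that organises the synapse, rose by log2 0.93 (adjusted p = 0.00535), a call that relative log expression factors removed (log2 0.53). The plot of scaled reads per library shows Runx1 beside genes of the other groups.

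Of the dystrophin-associated proteins, 4 of 15 were listed, 3 higher and 1 lower. Their median of log2 0.73 was that of all listed genes, of which 54.3% were higher and 36.9% lower. Lama2, the laminin chain that binds the complex from outside, rose by log2 0.84 (adjusted p = 0.000277). The syntrophins Sntb1 and Sntb2, adaptors on its inner side, rose by 0.65 and 0.82 (adjusted p = 0.00409 and 0.000619). Nos1, neuronal nitric oxide synthase, which dystrophin holds at the membrane, measured 1467, 766, 926 and 985 scaled reads in Control and 519, 628, 577 and 461 in mdx/miR-133b-/- muscle, a fall without overlap (log2 -0.89, adjusted p = 0.00109). Nos1 was lower (log2 -0.73, adjusted p = 0.0288) and Sntb2 higher (0.71, adjusted p = 0.0166) in mdx/miR-133b-/- than in mdx. The 3 rises did not pass with the GC and length trends removed (log2 0.24, 0.23 and 0.11 for Lama2, Sntb1 and Sntb2), whereas the fall of Nos1 did. Sntb1 (0.25) and Sntb2 (0.42) also did not pass with relative log expression factors.

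Eda2r, a receptor of the TNF family linked to wasting, rose 2.05-fold (adjusted p = 0.00018), and Cdkn1a, the cell cycle inhibitor p21, 3.19-fold (adjusted p = 0.000547). These were the 2 listed members of the atrophy list of 10. The call of Eda2r was lost with the GC and length trends removed (log2 0.39).

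**Figure D2:**
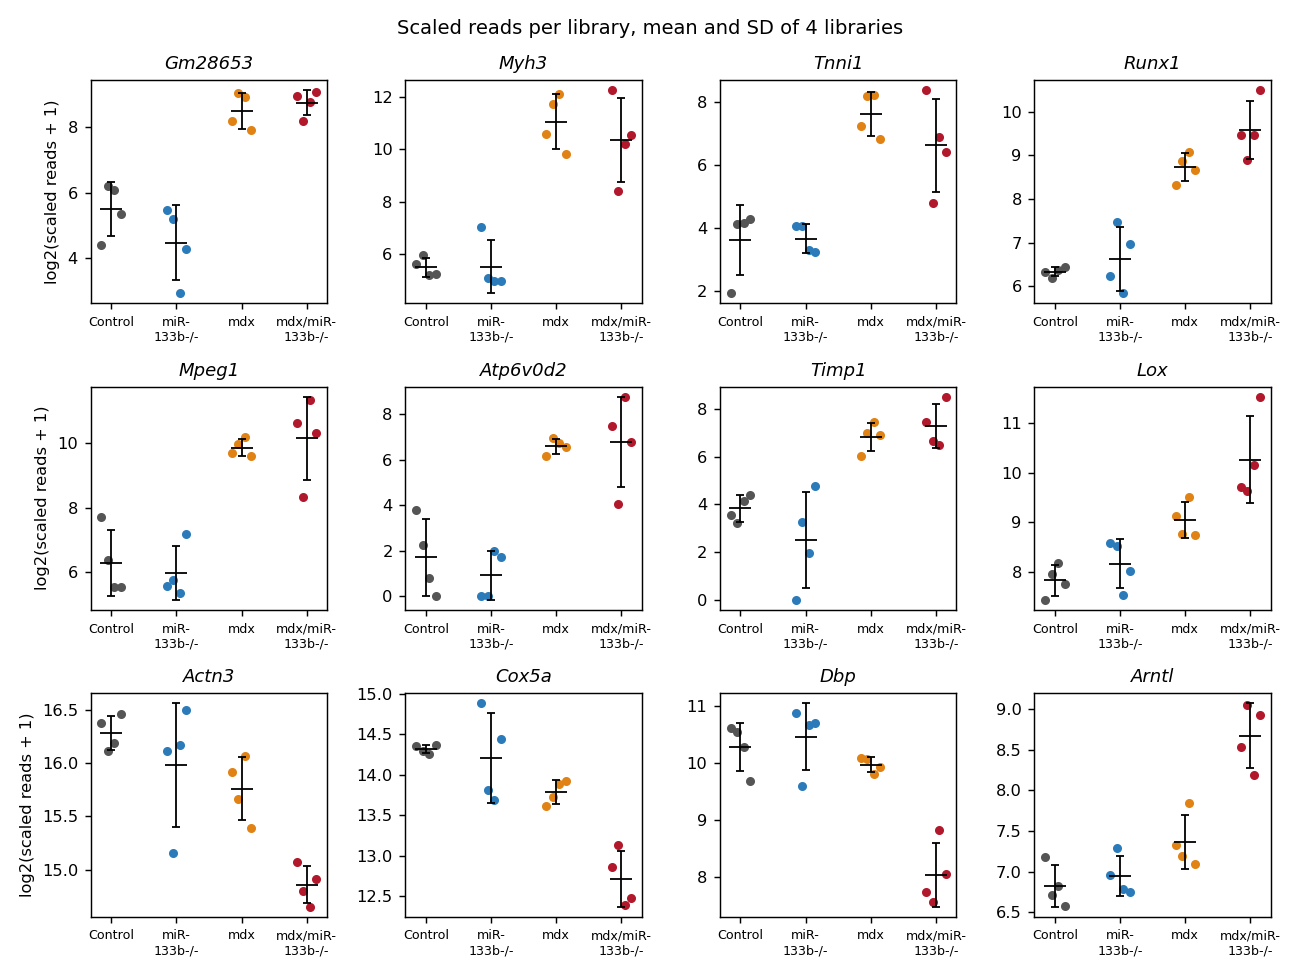
Points are log2(scaled reads + 1) of each of the 16 libraries for 12 genes, with the mean and SD of each group of 4. Control and mdx/miR-133b-/- libraries are at the left and right of each panel. The mdx/miR-133b-/- values lie above Control for Gm28653, Myh3, Tnni1, Runx1, Mpeg1, Atp6v0d2, Timp1, Lox and Arntl and below it for Actn3, Cox5a and Dbp.

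Monocyte and macrophage genes rose as a whole. All 21 listed of 31 were higher, beside 54.3% of all listed genes, with a median of log2 3.18, or 9.04-fold. The summed level of the 21 was 1611 to 2735 scaled reads in Control and 4518 to 19851 in mdx/miR-133b-/- libraries. Atp6v0d2, a subunit of the vesicular proton pump used by osteoclasts and lipid-laden macrophages, measured 12.9, 3.79, 0.73 and 0 in Control and 176, 15.9, 436 and 109 in mdx/miR-133b-/- muscle (33.4-fold, adjusted p = 0.00011). Mmp12, macrophage elastase, rose 28.7-fold (adjusted p = 0.000322) and was likewise listed at 0 in 1 Control library. Fold changes of such low genes are on the log2(value + 1) scale and are understated.

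Mpeg1, a pore-forming protein of macrophages, measured 207, 81.5, 45.3 and 45.5 scaled reads in Control and 1573, 324, 2618 and 1281 in mdx/miR-133b-/- libraries (14.7-fold, adjusted p = 1.17e-05). Replicate 3 was the highest and replicate 2 the lowest, and this order of the extremes also held for the summed list. Clec7a, the beta-glucan receptor dectin-1, rose 25.6-fold (adjusted p = 1.15e-05), and Ms4a7 14.0-fold (adjusted p = 2.62e-05). Adgre1, which encodes the macrophage surface protein F4/80, rose 6.08-fold (adjusted p = 1.15e-05), and Lyz2, lysozyme M, 6.77-fold (adjusted p = 2e-05). Mrc1, the mannose receptor, had the smallest rise of the 21 (log2 0.74, adjusted p = 0.00918) and did not pass with relative log expression factors or with the GC and length trends removed (log2 0.34 and 0.18). None of the 21 differed between mdx/miR-133b-/- and mdx at the threshold, beside 19.5% of all listed genes.

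Genes of lysosomes and phagosomes, the organelles that digest debris, rose in part. Of the 8 listed of 20, 7 were higher, beside 54.3% of all listed genes, and the median was log2 1.04 beside 0.73. The groups did not overlap in 3 of the 8, beside 78.3% of all listed genes. Ctss, cathepsin S, rose 11.6-fold (adjusted p = 6.7e-05), although Control replicate 1 (128) exceeded mdx/miR-133b-/- replicate 2 (121). Cd63, a lysosomal membrane protein, rose 2.22-fold (adjusted p = 0.000121), and Lgmn, the protease legumain, 1.92-fold (adjusted p = 0.00108). Grn, progranulin, did not pass (log2 0.48, adjusted p = 0.159), and passed without mdx/miR-133b-/- replicate 2 (log2 0.72, adjusted p = 0.043) and with the GC and length trends removed (0.95). Macrophage markers rose in the same libraries, and their part in these values was not tested.

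All 9 listed complement and antigen presentation genes of a list of 20 were higher, beside 54.3% of all listed genes, with a median of 1.74. C3ar1, the receptor for the complement fragment C3a, rose 13.1-fold (adjusted p = 4.41e-05). C1qc and C1qb, chains of the first complement component, rose 4.96-fold and 4.11-fold (adjusted p = 3.2e-05 and 3.54e-05). H2-Eb1, a class II antigen-presenting chain, measured 50.02, 75.8, 59.96 and 29.9 scaled reads in Control and 288, 123, 157 and 159 in mdx/miR-133b-/- libraries (3.33-fold, adjusted p = 0.000146). Their median in mdx against Control was 2.48. The difference between mdx/miR-133b-/- and mdx passed for none of the 9, beside 19.5% of all listed genes.

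Pattern recognition receptors and chemokines, the signals that draw and arouse myeloid cells, rose in 9 of 9 listed of 22, with a median of 2.66. Among all listed genes 54.3% were higher. Ccl7, a chemokine for monocytes, measured 15.7, 7.58, 8.77 and 13.4 scaled reads in Control and 227, 146, 91.8 and 689 in mdx/miR-133b-/- muscle (18.1-fold, adjusted p = 3.14e-05). Ccl6, another chemokine of myeloid cells, rose 8.65-fold (adjusted p = 5.68e-06) and exceeded mdx (log2 1.20, adjusted p = 0.0371). Tlr1, a receptor for bacterial lipoproteins, rose 6.77-fold (adjusted p = 4.9e-05), and Il10ra, the interleukin-10 receptor chain, 5.70-fold (adjusted p = 0.000263). Oas2, the single listed gene of the interferon list, rose 3.01-fold (adjusted p = 0.000194).

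Of the lymphocyte and plasma cell list of 14, 2 were listed, 1 higher and 1 lower, beside 54.3% and 36.9% of all listed genes. Ptprc, the pan-leukocyte phosphatase CD45 and so not particular to lymphocytes, rose 5.56-fold (adjusted p = 9.27e-05). Ighm, the heavy chain of IgM made by B cells, measured 1230, 418, 184 and 387 scaled reads in Control and 85.7, 38.4, 122 and 39.5 in mdx/miR-133b-/- libraries, a fall without overlap (6.82-fold, adjusted p = 0.000228). Control replicate 1 was the highest. Ighm was also lower in mdx/miR-133b-/- than in mdx (log2 -1.64, adjusted p = 0.0419). Flt1, a VEGF receptor of endothelium and its single listed marker, fell by 0.61 on the log2 scale (adjusted p = 0.00547).

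**Figure D3:**
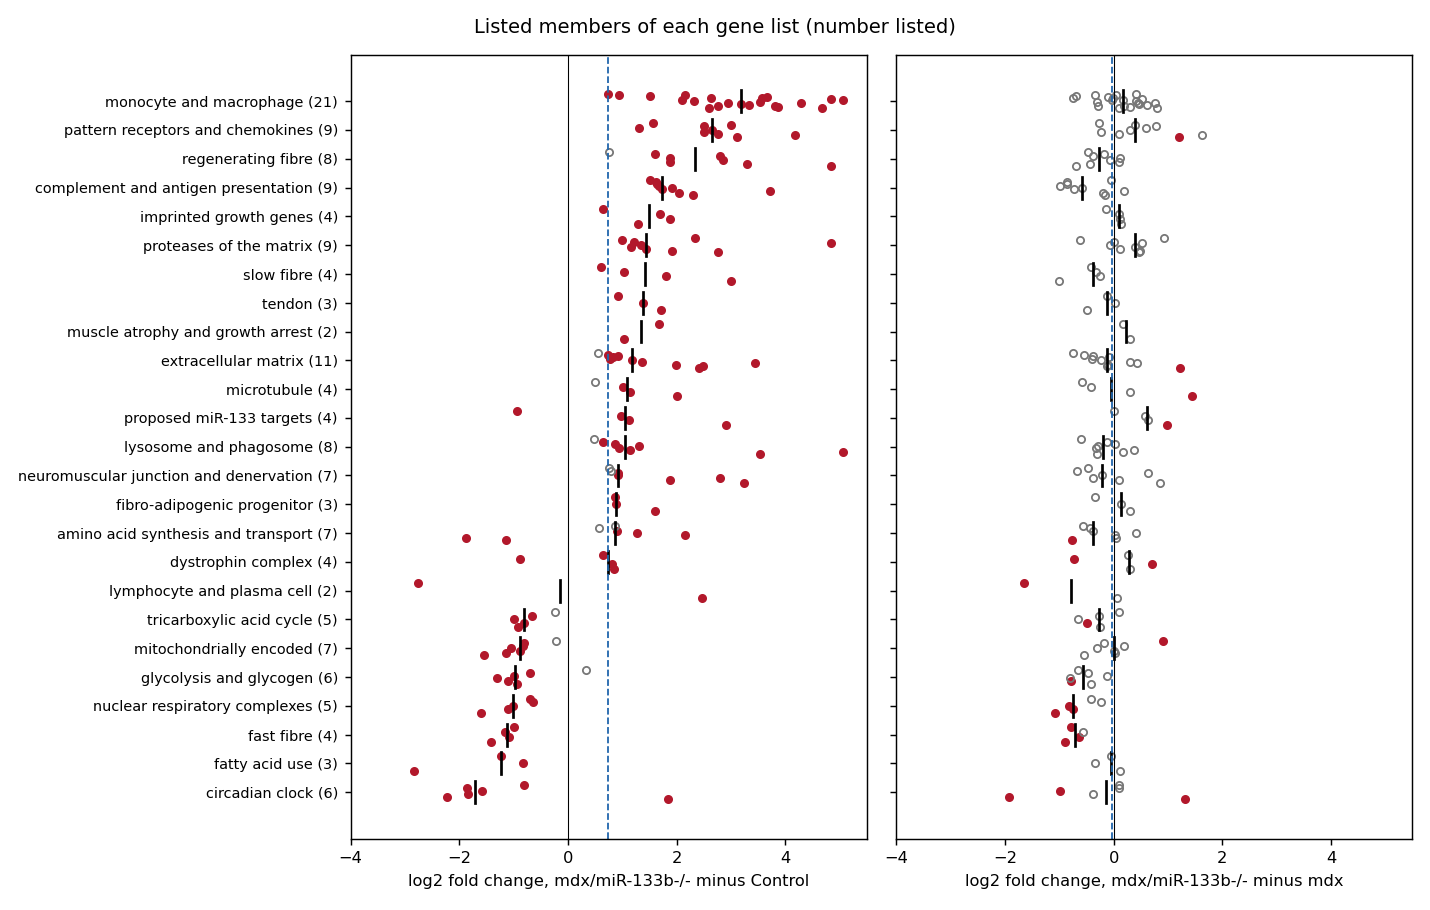
Each row is a gene list with at least 2 listed members (number in brackets), each point a listed gene, and the black bar their median. The left panel is the log2 fold change of mdx/miR-133b-/- over Control and the right panel that over mdx. Filled red points passed at adjusted p under 0.05, open grey points did not, and the dashed line is the median of all 831 genes. Macrophage genes are at the top with a median of 3.18 and clock genes at the bottom, and few members pass in the right panel.

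Matrix genes rose in 10 of 11 listed of 26, with a median of log2 1.18, beside 54.3% higher and a median of 0.73 over all listed genes. Lox, the enzyme that crosslinks collagen, measured 174, 250, 290 and 216 scaled reads in Control and 842, 792, 1142 and 2937 in mdx/miR-133b-/- libraries (5.34-fold, adjusted p = 1.33e-05). Replicate 4 stood well above the others, and the lowest mdx/miR-133b-/- library still had more than the highest Control library. Lox was the 1 matrix gene that also exceeded mdx at the threshold (log2 1.22, adjusted p = 0.0216), where 7.46% of all listed genes did. Postn, periostin, rose 5.60-fold (adjusted p = 4.95e-05), from 419 to 1106 scaled reads in Control to 2456 to 8789. Timp1, an inhibitor of metalloproteinases, rose 10.9-fold (adjusted p = 0.000329), and Tnc, tenascin C, 3.97-fold (adjusted p = 0.000214).

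Bgn, biglycan, did not pass (log2 0.55, adjusted p = 0.0712). Its mdx/miR-133b-/- replicate 1 measured 4812 scaled reads and the other 3 between 1647 and 2381, beside a Control range of 1327 to 1980. It passed without replicate 2 or without replicate 4 (log2 0.73 and 0.72) and with the GC and length trends removed (0.82). With relative log expression factors 6 of the 11 matrix genes passed, and with the GC and length trends removed 8 did. Vcan, the proteoglycan versican (log2 1.36, adjusted p = 0.000341), did not pass with the trends removed (0.43).

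Proteases of the matrix were higher in 9 of 9 listed of 20, with a median of 1.44, beside 54.3% higher and a median of 0.73 over all listed genes. Adam8, a surface protease of leukocytes, rose 6.79-fold (adjusted p = 1.69e-05), Mmp19 3.75-fold (adjusted p = 7.14e-05) and Adam12, an early marker of activated stromal cells and regenerating muscle, 2.71-fold (adjusted p = 0.000187). Adamts5, an aggrecanase, rose 2.25-fold (adjusted p = 0.000214), a call lost with the GC and length trends removed (log2 0.30).

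Fibro-adipogenic progenitors are the stromal cells that lay down matrix and fat. Pdgfra, their defining receptor, measured 300, 455, 325 and 249 scaled reads in Control and 940, 698, 1230 and 1146 in mdx/miR-133b-/- muscle (3.02-fold, adjusted p = 1.56e-05), with no overlap. Fap and Lum, the other 2 of 13 that were listed, rose 1.84-fold and 1.82-fold (adjusted p = 0.00206 and 0.00257), each with 1 or more libraries overlapping Control. Lum lost its call with relative log expression factors (log2 0.47). Of tendon genes, Thbs4 rose 3.27-fold (adjusted p = 0.000185), Col12a1 2.62-fold (adjusted p = 0.000235) and Col14a1 1.89-fold (adjusted p = 0.00686). Col14a1 lost its call with relative log expression factors (log2 0.52) and with the GC and length trends removed (0.60).

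Imprinted growth genes, which are active in growing and regenerating tissue, were all higher, 4 of 4 listed of 12, beside 54.3% of all listed genes. Peg3 rose 2.45-fold (adjusted p = 2.47e-05), Igf2, an insulin-like growth factor, 3.67-fold (adjusted p = 0.000185) and Plagl1, a zinc finger regulator of this network, 3.24-fold (adjusted p = 0.000288). Grb10, an adaptor that restrains insulin signalling, rose 1.56-fold (adjusted p = 0.0132), a call lost without Control replicate 1 (log2 0.45, adjusted p = 0.067), with relative log expression factors (0.24) and with the GC and length trends removed (0.37).

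Microtubule genes were higher in 3 of 4 listed of 14, beside 54.3% of all listed genes. Svbp, the partner that vasohibins need to remove tyrosine from tubulin, measured 85.0, 121, 136 and 152 scaled reads in Control and 452, 349, 532 and 689 in mdx/miR-133b-/- libraries (4.04-fold, adjusted p = 9.3e-06). It also exceeded mdx (log2 1.44, adjusted p = 0.00153), whereas mdx against Control did not pass (log2 0.57, adjusted p = 0.065). Map1b rose 2.21-fold (adjusted p = 0.000423) and lost its call with the GC and length trends removed (log2 0.44). Tubb6, a beta-tubulin, rose 2.02-fold (adjusted p = 0.0334), a call lost without any of 4 single libraries: Control replicate 1 (log2 0.80) or 2 (0.91), or mdx/miR-133b-/- replicate 1 (0.79) or 4 (0.99). It was lost with relative log expression factors too (0.62). Vash2, a vasohibin, did not pass (log2 0.50, adjusted p = 0.138).

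Nuclear genes of the respiratory complexes were lower in 5 of 5 listed of 27, with a median of log2 -1.01, where 36.9% of all listed genes were lower and the median was 0.73. Cox5a, a subunit of cytochrome oxidase, measured 21056, 20081, 19595 and 21123 scaled reads in Control and 7456, 8948, 5356 and 5713 in mdx/miR-133b-/- muscle. The Control libraries were nearly equal and the fall was 3.04-fold (log2 -1.61, SE 0.22, adjusted p = 1.33e-05). Atp5a1, a catalytic-core subunit of ATP synthase, fell 2.16-fold (adjusted p = 0.000198), Ndufa10 2.02-fold (adjusted p = 0.000472) and Ndufs1 1.57-fold (adjusted p = 0.00109), the last 2 being complex I subunits. Cox5a (log2 -1.07, adjusted p = 0.00399), Atp5a1 (-0.75, 0.0242) and Ndufa10 (-0.83, 0.0187) were also below mdx.

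Mitochondrially encoded genes were lower in 6 of 7 listed of 15, with a median of -0.88, against the same 36.9% of all listed genes. mt-Nd4, a complex I subunit, measured 111209, 97970, 86476 and 113040 scaled reads in Control and 28421, 41063, 32352 and 39795 in mdx/miR-133b-/- libraries (2.90-fold, adjusted p = 2.47e-05). mt-Nd2 fell 2.20-fold (adjusted p = 0.000477), mt-Cytb 1.84-fold (adjusted p = 0.000704) and mt-Nd1 2.08-fold (adjusted p = 0.00116). mt-Atp6 overlapped Control (log2 -0.21, adjusted p = 0.401) and was above mdx (log2 0.90, adjusted p = 0.0196). With relative log expression factors it too was lower than Control (log2 -0.61, adjusted p = 0.035), and all 7 passed. As a share of all reads in listed genes, which needs no scaling, the 7 genes took 37.7%, 36.5%, 30.6% and 30.2% in Control and 22.4%, 28.9%, 29.98% and 34.3% in mdx/miR-133b-/- libraries. The means were 33.7% ± 3.89 and 28.9% ± 4.93 (SD, n = 4 each). The groups overlapped and the difference did not pass an exact two-sided permutation test (-4.84 percentage points, p = 0.143, smallest possible 0.0286). In scaled reads the 7 genes summed to 719128 to 1.16e+06 in Control and 343998 to 549831 in mdx/miR-133b-/- libraries. All listed genes together summed to 2.35e+06 to 3.09e+06 and 1.47e+06 to 1.60e+06. The share is thus relative to a selected list whose total was lower too, and does not check the falls above.

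The tricarboxylic acid cycle list had 4 of 5 listed lower, of 18, beside 36.9% overall. Pdk2, a kinase that restrains pyruvate entry, fell 1.88-fold (adjusted p = 0.000134), Idh3b 1.75-fold (adjusted p = 0.000357), Fh1, fumarase, 1.99-fold (adjusted p = 0.00133) and Suclg1 1.58-fold (adjusted p = 0.00499). Mdh2, malate dehydrogenase, did not pass (log2 -0.24, adjusted p = 0.179), and with the GC and length trends removed its sign turned and it passed as higher (0.41, adjusted p = 0.024). With relative log expression factors it passed as lower (-0.64, adjusted p = 0.0063). Suclg1 did not pass with the trends removed (log2 -0.31).

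Genes of glucose use fell in 5 of 6 listed of 21, beside 36.9% overall. Slc2a4, the insulin-sensitive glucose transporter GLUT4, measured 15264, 9782, 11984 and 11767 scaled reads in Control and 5504, 5455, 4664 and 4011 in mdx/miR-133b-/- muscle (2.47-fold, adjusted p = 0.000578). Aldoa, aldolase A, fell 1.93-fold (adjusted p = 0.000454), Ldhb, a lactate dehydrogenase chain, 2.16-fold (adjusted p = 0.000457) and Hk2, muscle hexokinase, 1.98-fold (adjusted p = 0.000921). Aldoa did not pass with the GC and length trends removed (log2 -0.25). Hk1, the other hexokinase, did not pass (log2 0.34, adjusted p = 0.233), its sign turned with relative log expression factors (-0.06), and it passed as higher with the GC and length trends removed (0.55, adjusted p = 0.04).

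Of fatty acid genes, all 3 listed of 19 were lower, beside 36.9% of all listed genes. Ces1d, a lipase of the carboxylesterase family, measured 142, 158, 106 and 104 scaled reads in Control and 11.9, 7.29, 22.5 and 38.2 in mdx/miR-133b-/- libraries (7.14-fold, adjusted p = 0.000164). Ppara, a regulator of fat burning, fell 2.36-fold (adjusted p = 0.00249) and Cpt2, which acts in fatty acid import into mitochondria, 1.77-fold (adjusted p = 0.00189). Macrophage and matrix genes rose in the same libraries in which fibre and energy genes fell, and how far a changed mix of cells enters these falls was not tested.

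Amino acid genes split by direction. Slc38a1, a glutamine carrier, rose 4.43-fold (adjusted p = 0.0001) and Slc7a11, the cystine carrier, 2.42-fold (adjusted p = 0.000212), and the call of the second was lost with the GC and length trends removed (log2 0.33). Got1, an aspartate aminotransferase, fell 2.21-fold (adjusted p = 5.16e-05) and was below mdx (log2 -0.77, adjusted p = 0.0127). Slc1a1, a glutamate carrier, fell 3.67-fold (adjusted p = 5.8e-05). The serine synthesis enzymes Psat1 and Phgdh did not pass (log2 0.58 and 0.87, adjusted p = 0.0515 and 0.0562), though limma-voom on the reads called both (adjusted p = 0.042 and 0.028), as did the fit with the GC and length trends removed (log2 0.59 and 1.49).

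Clock genes moved in opposite directions. In the core clock, Arntl encodes the activator BMAL1, and Per2 and Ciart encode repressors, while Dbp and Hlf are related output factors. Arntl measured 144, 104, 112 and 94.8 scaled reads in Control and 368, 529, 289 and 485 in mdx/miR-133b-/- muscle (3.60-fold, adjusted p = 7.24e-06). Dbp measured 1555, 1485, 1244 and 824 in Control and 213, 188, 454 and 264 in mdx/miR-133b-/- muscle (4.70-fold lower, adjusted p = 7.24e-06). All 4 mdx/miR-133b-/- libraries stood above Control for Arntl and below it for Dbp. Hlf fell 3.59-fold (adjusted p = 0.000206), Per2 2.99-fold (adjusted p = 0.000348) and Ciart 3.64-fold (adjusted p = 0.00157). Over the list of 19, 1 of 6 listed rose and 5 fell, beside 54.3% and 36.9% of all listed genes.

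Against mdx, Arntl was higher (log2 1.30, adjusted p = 0.00132), and Dbp (-1.93, 0.000236) and Per2 (-0.98, 0.0439) were lower. Hlf and Ciart did not pass (log2 -0.38 and 0.10). The sources used here do not give the hour at which each muscle was taken.

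Further genes completed the largest changes by size. Dclk1, a microtubule-associated kinase, measured 117, 142, 201 and 165 scaled reads in Control and 2216, 818, 2226 and 3632 in mdx/miR-133b-/- libraries (12.7-fold, adjusted p = 5.87e-07), a wide gap in every library. Cyfip2, a subunit of the complex that drives branched actin, rose 10.2-fold (adjusted p = 4.69e-06). Dach2, a transcriptional cofactor that responds to motor nerve activity, measured 210, 186, 146 and 154 in Control and 23.8, 26.5, 34.7 and 69.1 in mdx/miR-133b-/- muscle (4.79-fold lower, adjusted p = 1.34e-05). Also lower were Adhfe1 (4.09-fold, adjusted p = 0.000348), a mitochondrial oxidoreductase, Dusp26 (3.98-fold, adjusted p = 0.000323), a phosphatase, Tmem267 (3.95-fold, adjusted p = 0.000357), Raver2 (3.78-fold, adjusted p = 1.17e-05), an RNA-binding protein, and Vwa3b (3.76-fold, adjusted p = 0.000185). Tmem267 and Raver2 were also below mdx (log2 -1.46 and -0.94, both with adjusted p = 0.024).

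The deepest falls were 4 zinc finger genes in 1 stretch of chromosome 2 (GRCm38, chr2:177464733-177957297). Zfp970 gave 200, 115, 148 and 108 reads in Control and 1 read in each mdx/miR-133b-/- library, a ratio of scaled reads of 174 (95% counting interval 67.6 to 641). Gm14325 gave 359, 153, 256 and 174 reads in Control and 0 in all 4 mdx/miR-133b-/- libraries. Set against a floor of 3 reads per library, it was at least 94.8-fold lower.

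Gm14403 gave 2 reads in all against 455 in Control (ratio 278, interval 76.4 to 2298), and Gm14326 gave 12, 1, 0 and 1 against 725 (ratio 63.2, interval 37.4 to 116). These intervals cover counting error only. The 4 genes belong to a family of near-identical copies, so how the authors' counting shared reads among them is uncertain. None of the 4 passed in mdx against Control (log2 -0.41 for Zfp970, 0.03 for Gm14325, -0.03 for Gm14326 and 0.07 for Gm14403), and all 4 differed between mdx/miR-133b-/- and mdx (log2 -5.55 for Zfp970 and -7.33 for Gm14325).

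**Figure D4:**
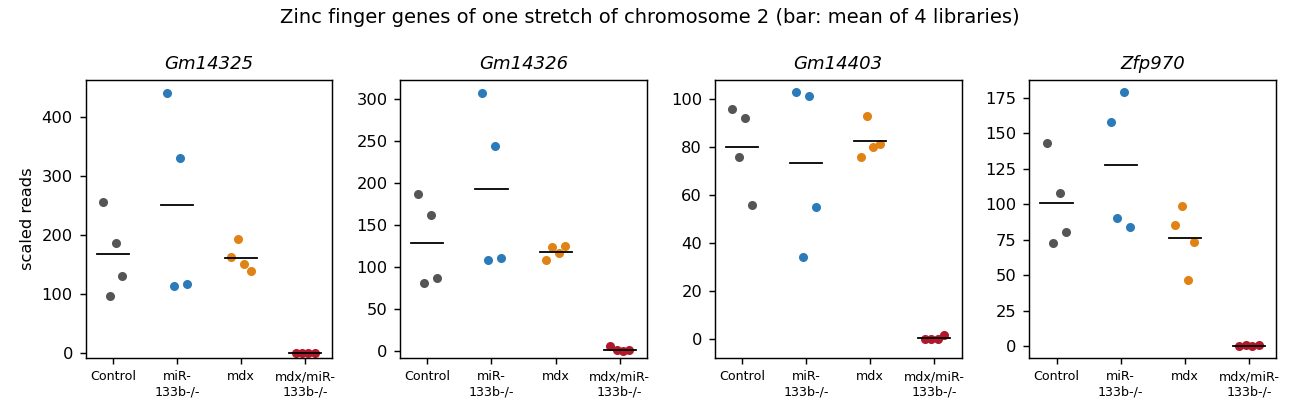
Scaled reads on a linear axis for the 4 zinc finger genes of chromosome 2, 1 point per library and a bar at the mean of each group of 4. The mdx/miR-133b-/- points lie between 0 and 5.502 in every panel, and the points of the other 3 groups are well above them.

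Some differences from Control were shared with mdx and others were not. In mdx against Control, 550 of the 831 genes passed (66.2%), and 509 of these also passed in mdx/miR-133b-/- against Control, both comparisons using the same Control libraries. Of the 249 genes that passed in mdx/miR-133b-/- only, the direct test of mdx/miR-133b-/- against mdx passed for 121. Of the 41 that passed in mdx only, it passed for 6. Over all genes that direct test called 162 (19.5%), 62 higher (7.46%) and 100 lower (12%), of which 57 and 97 also differed from Control in that direction. That count depends on single libraries, falling to 49 without mdx/miR-133b-/- replicate 4, 70 without mdx/miR-133b-/- replicate 3, and 71, 56 and 84 without mdx replicates 1, 3 and 4, and to 57 with the GC and length trends removed.

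No gene passed in miR-133b-/- against Control with limma (0 of 831, 0%) or with limma-voom on the reads (0), and the unadjusted p was under 0.05 for 84. Whether mdx/miR-133b-/- departed from the sum of the 2 single differences was tested as an interaction, and 8 genes passed (0.963%), 1 higher (0.12%) and 7 lower (0.842%). The difference between mdx/miR-133b-/- and miR-133b-/-, at least 1.72-fold in each listed gene, enters this test. The selection of the list therefore bears on the count of 8, which is not an estimate for the transcriptome. Dbp departed by log2 -2.11 and Zfp970 by -5.86. Gm14325, Gm14326, Gm14403 and Gm47283, the last annotated on the Y chromosome, were lower too. The fall of Gm47283 against Control (log2 -3.01) did not pass with the GC and length trends removed (-1.41). Gtf3a, a transcription factor for 5S ribosomal RNA genes, departed by -1.21. Its fall against Control (log2 -0.73, adjusted p = 0.00279) vanished with the GC and length trends removed (0.03). Gm8822, a processed pseudogene on the X chromosome, departed upward by 4.23: it measured 138, 145, 166 and 159 scaled reads in Control and 326, 401, 530 and 529 in mdx/miR-133b-/- muscle (log2 1.52), and was lower than Control in mdx (log2 -2.004). Its rise over Control was lost with relative log expression factors (1.12) and with the GC and length trends removed (1.19). Gm8822 (chrX:81820384-81822730) lies close to Dmd (chrX:82814664-85205050), the gene mutated in mdx mice. The part of sequence linked to Dmd in its values was not tested. Among higher genes that did not pass the interaction, those with the smallest p were Arntl, Crebzf and Serp1, which rose over Control by log2 1.85, 1.08 and 1.03. Without miR-133b-/- replicate 2 the count of the interaction rose from 8 to 110, and without mdx/miR-133b-/- replicate 1 to 15.

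Genes that rose and genes that fell also differed in sequence. Higher genes had a median GC content of 47.9% and a median transcript length of 3831 bases, and lower genes 51.5% and 2455 bases. Genes are no independent replicates. Over the whole list the Spearman correlation of the difference from Control with GC content was -0.29 and with length 0.24, beside -0.09 and 0.14 for mdx against Control. Both were then fitted together within single libraries, to each gene's log2 level relative to its mean over all libraries. The slope on GC content, in log2 units per percent GC, was 0.009 to 0.028 in Control and -0.054 to -0.006 in mdx/miR-133b-/- libraries. The slope on length was -0.176 to -0.059 against 0.170 to 0.239 per doubling of length. Neither slope overlapped between the groups. The slopes draw on the same differences as the correlations and are no separate evidence. With both trends removed 662 genes passed, 403 higher and 259 lower.

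**Figure D5:**
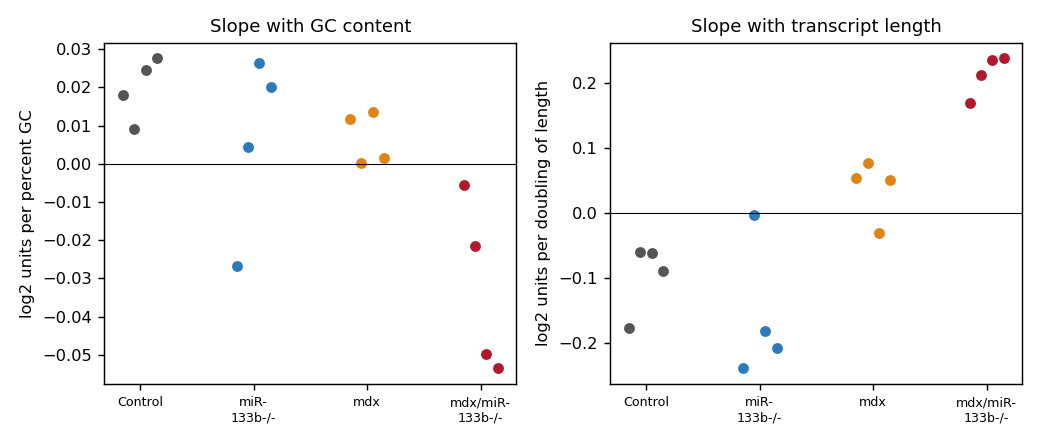
Slope of each library's log2 level, relative to the gene's mean, on transcript GC content and length fitted together (left, GC, log2 units per percent GC, and right, length, log2 units per doubling), 1 point per library. Control slopes on GC are 0.009 to 0.028 and mdx/miR-133b-/- slopes -0.054 to -0.006, and on length -0.176 to -0.059 and 0.170 to 0.239.

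The labelled tissue was checked against its markers. Myh4 measured 348669 to 435211 scaled reads in Control and 146677 to 198202 in mdx/miR-133b-/- libraries, and Ckm 103314 to 135826 and 50387 to 64288, so fast fibre genes of this muscle were detected in every library. In 8 of the 36 lists, those for satellite cells, adipocytes, neutrophils and mast cells, pericytes and smooth muscle, Schwann cells, erythrocytes, the cell cycle, and heat shock and immediate early genes, no member was listed, so they were not analysed here.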

How the data were processed

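RNA was measured by sequencing in 16 muscle libraries. Per the submitters' processing notes, HISAT2, HTSeq and the build GRCm38 were used for alignment and counting. The sources used here do not state versions, settings, strand or the rule that chose the listed genes. The deposited table holds a scaled read signal: each value is a whole read count times 1 factor per library (0.459 to 1), whole within 0.001 for 100% of values. From it log2(value + 1) was fitted with limma 3.58.1 in R 4.3.3, 1 mean per group over 16 libraries, letting the variance follow the level, and p-values were adjusted by Benjamini-Hochberg over 831 genes at 0.05, without a filter on low values. Limma's steps were tested on simulated data. All identifiers matched GENCODE M21, which gave GC content, length and 3′ UTRs. The mitochondrial share was tested by exact permutation (scipy 1.17.1).

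Members, gene lists, the rule for named genes and the seed search were chosen with earlier results of these data known. Named were the miR-133b locus gene, the 12 largest rises and 12 largest falls that passed, separated the groups and had a mean of at least 50, leaving out predicted models, all members of lists with 4 or fewer listed, otherwise the 4 with the smallest p and any that did not pass, and the genes of the interaction. A few genes that the rule or the lists hold are not reported here. A few list members outside that rule (Musk, Mrc1, Vcan and Ciart) and the genes with printed sites were chosen after their values were seen. The list is a part of the library, so its total is not the depth. No 2 Control libraries and no 2 mdx/miR-133b-/- libraries were alike within sampling noise. The mdx and miR-133b-/- libraries were not compared in this way. Alternatives were other pseudocounts, scalings, filters, trend removal, a replicate block, fewer libraries and limma-voom on the reads.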

Additional observations from a re-analysis of the deposited data

Results flagged for a closer look

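Within groups of 4 libraries, 13 of 260 group sets examined over 129 genes had 1 library apart by Dixon's criterion, and chance alone marks about 1 in 20. Among mdx/miR-133b-/- libraries, the highest was apart for Atp2a2 (3055), Dusp26 (163), Lox (2937), Myl4 (1331), Thbs4 (2525), Tnnt2 (531), Gm14326 (5.502) and Gm14403 (1.32 scaled reads). Among Control libraries, the highest was apart for Ctss (128), Fh1 (1802), Pvalb (77501) and Serp1 (472), and the lowest for Tnni1 (2.86).

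In 8 genes mdx/miR-133b-/- departed from the sum of the single differences by the interaction test in limma. Each listed gene differed between mdx/miR-133b-/- and miR-133b-/- by at least 1.72-fold, a difference that enters this test. On the log2 scale the departure was -2.11 for Dbp, -7.75 for Gm14325, -6.37 for Gm14326, -5.85 for Gm14403, -3.91 for Gm47283, 4.23 for Gm8822, -1.21 for Gtf3a and -5.86 for Zfp970.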

How the results depend on the processing

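The count of genes differing between mdx/miR-133b-/- and Control (758) stayed within 1.5 times under every alternative run, from 583 with a minimum mean of 100 to 761, and from 718 to 754 with 1 library left out. Against mdx the count of 162 moved to 57 with the GC and length trends removed, to 50 with these and the replicate block, and to between 49 and 197 with 1 library left out. The interaction count of 8 moved to 4 with a minimum mean of 100, to 14 with relative log expression factors, to 5 with the trends removed, and to between 7 and 110 with 1 library left out. The minimum mean tests fewer genes. For the other settings the cause was not tested. The sign turned for Gtf3a (log2 0.025) and Mdh2 (0.41) with the trends removed, with or without the block, and for Hk1 (-0.062) with relative log expression factors. Of 165 list members and other examined genes that passed, 18 lost their call with those factors and 22 with the trends removed. The mitochondrial share difference ran from -6.65 to -2.67 with 1 library left out. With the replicate number as a block 749 genes passed, 120 against mdx. Same-numbered Control and mdx/miR-133b-/- libraries did not deviate together (correlations -0.073, -0.196, -0.283 and 0.045). So few correlations cannot show that same-numbered libraries share no batch or preparation. The planned edgeR and DESeq2 alternatives were not run, because the deposited values are scaled. limma-voom on the reads, chosen after seeing the data, took their place and gave 759. Depth limits genes of few reads, such as the zinc finger genes.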
